A study of Mus musculus with 8 samples.

Results

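A set of 10 genes for Fc and immunoglobulin-like receptors of leukocytes was examined in mouse epididymal fat, a visceral depot of white adipose tissue. The genes are Lilr4b, Lilrb4a, Pirb, Fcgr1, Fcgr2b, Fcgr3, Fcgr4, Fcer1g, Sirpa and Cd84. They were taken by name, as activating and inhibitory Fc, Lilr and Pir receptors with their shared signalling chain and the receptors Sirpa and Cd84. The choice was made with earlier results of these data known. All 10 were found among the 34866 genes of the table, and 8 of them passed the filter on low counts that left 12480 genes to test. Fcgr1 and Fcgr4 did not pass it.

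The control mice, labelled Aromatase flox/flox, carried an aromatase gene (Cyp19a1) flanked by loxP sites, and the knockout mice, labelled aP2-Cre;Aromatase flox/flox, carried the aP2-Cre transgene as well. Each genotype had 4 libraries, the series title says that the mice were male, and their age is not given in the sources used here. Aromatase converts androgens into oestrogens, and the stated aim was to find its targets in fat that regulate phosphorus metabolism. The aP2 promoter comes from Fabp4, which encodes a fatty-acid carrier. It is active in adipocytes and is known to be active in some other cells too, macrophages among them. No group with the transgene and no floxed allele was analysed here, so the transgene and the deletion cannot be told apart. The labels do not say how animals map to libraries, so the p-values measure the spread between these libraries.

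Fc receptors bind the constant part of antibodies and so connect antibody-coated particles to macrophages, neutrophils and other leukocytes. Activating Fc receptors pair with the FcRγ chain, encoded by Fcer1g, whose ITAM (immunoreceptor tyrosine-based activation motif) recruits the kinase Syk once phosphorylated. Inhibitory receptors carry an ITIM (the inhibitory counterpart) in their own cytoplasmic tail, which recruits phosphatases such as SHP-1 and SHIP-1. Macrophages of fat carry members of both kinds, and the balance between them sets how readily the cells respond to bound ligand.

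The coding stretches of these motifs are shown because they separate the inhibitory from the activating members. They were read from GENCODE M21 transcripts of the GRCm38 assembly. Each motif was searched for in the conceptual protein beyond its most hydrophobic stretch of 19 residues, taken as the membrane span. Each line below runs 5′ to 3′ on the coding strand, with the motif codons in capitals and up to 12 coding bases on either side. For Lilr4b the capitals mark the bases that align with the first ITIM codons of Lilrb4a.
Lilr4b: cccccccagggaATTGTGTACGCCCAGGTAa
Lilrb4a, first ITIM: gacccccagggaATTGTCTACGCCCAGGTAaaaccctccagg
Lilrb4a, second ITIM: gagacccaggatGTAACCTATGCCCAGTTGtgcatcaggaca
Pirb, ITIM: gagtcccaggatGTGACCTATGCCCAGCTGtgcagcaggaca
Fcgr2b, ITIM: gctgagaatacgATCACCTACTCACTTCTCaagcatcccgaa
Sirpa, ITIM: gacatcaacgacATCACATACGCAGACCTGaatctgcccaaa
Cd84, ITSM: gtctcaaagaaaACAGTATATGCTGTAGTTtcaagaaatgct
Fcer1g, ITAM: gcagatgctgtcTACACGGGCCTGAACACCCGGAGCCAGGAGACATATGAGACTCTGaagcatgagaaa

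The Lilr4b stretch lies at chr10:51485730-51485760 in exon 8, on the plus strand. The 2 Lilrb4a stretches lie at chr10:51496009-51496050 in exon 8 and chr10:51496182-51496223 in exon 9, on the plus strand. The Pirb stretch is at chr7:3712774-3712815 in exon 15 on the minus strand, and the Fcgr2b stretch at chr1:170961059-170961100 in exon 8 on the minus strand. The Sirpa stretch is at chr2:129629942-129629983 in exon 8 and the Cd84 stretch at chr1:171884593-171884634 in exon 5, both on the plus strand. The Fcer1g stretch spans the junction of exons 4 and 5 on the minus strand, between chr1:171229877 and 171230084. By the same search Pirb held 3 ITIMs, Lilrb4a 2, Fcgr2b 1 and Sirpa 3. Cd84 held 2 copies of the ITSM, the switch motif of its SLAM family, and Sirpa 1. None of these motifs was found in the tails of Lilr4b, Fcgr1, Fcgr3 and Fcgr4.

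Lilr4b and Lilrb4a are neighbours on chromosome 10, at 51480632 to 51486703 and 51490956 to 51496611. Their coding sequences were identical at 96% of 910 aligned bases. After coding base 881, Lilr4b holds 2 bases with no counterpart in Lilrb4a, and its reading frame ends 29 bases later, whereas that of Lilrb4a runs on for 127. Lilr4b thus encodes 303 residues with no ITIM in its tail and Lilrb4a 335 residues with 2. The 18 bases of the second Lilrb4a ITIM also stand in the Lilr4b transcript, from 48 bases past its last coding base.

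The libraries held 1538427 to 3053565 estimated counts, and values are given as CPM, counts relative to library sizes scaled by TMM (trimmed mean of M values). A count of 0 in a library allows a level of up to 3 counts, which is 0.984 to 1.92 CPM and covers counting error only. Cyp19a1 had 1 to 5.02 estimated counts in controls and 0 to 4 in the knockout libraries, so the deletion could not be checked at this depth. Fabp4, a defining adipocyte gene, stood at 15049 to 22092 CPM in controls and 13926 to 20986 CPM in knockouts. Of 10 epididymis markers, 5 were at 0 in all libraries, Crisp1 among them, and the 10 together came to 1.63 to 12.3 CPM.

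Lilr4b and Lilrb4a rose in the knockout libraries, and they were the 2 of the 8 tested receptor genes past an adjusted p of 0.05 (quasi-likelihood test of edgeR). Over all genes tested 0.168% passed, 0.12% higher and 0.0481% lower. All 8 had a log2 fold change above 0, as had 49.7% of all genes, and their median was 0.47 against -0.0015 over all genes. A total of 6 had an unadjusted p under 0.05 in the higher direction, where 3.52% of all genes did (6.39% in either direction). In 5 of the 8 each knockout library lay above every control library, as in 2.52% of all genes, while 1.72% lay apart in the lower direction. Since the list was chosen with earlier results known, these shares describe it and are no test of it. In tissue RNA, more cells of a type and more RNA per cell cannot be told apart.

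**Figure D1:**
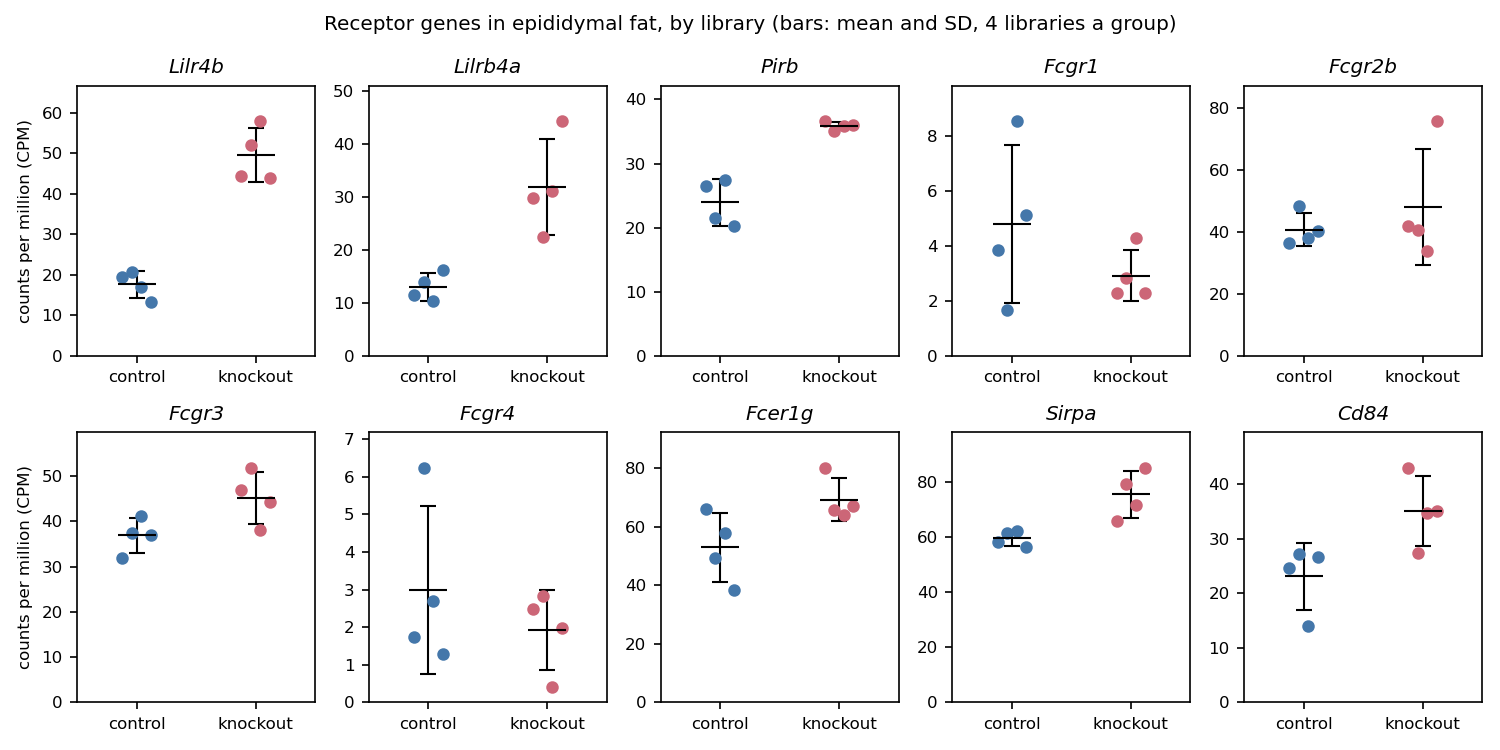
CPM of each of the 10 receptor genes (vertical axis, from 0) in the 4 control and 4 knockout libraries, with bars for the mean and SD. Lilr4b, Lilrb4a, Pirb, Sirpa and Cd84 have every knockout library above every control library, and Fcgr1 and Fcgr4 stay under 9 CPM.

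Lilr4b, historically gp49A, encodes the member of the pair without inhibitory motifs. Lilr4b read 19.5, 20.8, 17.01 and 13.3 CPM in the controls, listed by replicate from 1 to 4, and 44.3, 52.0, 57.9 and 43.9 CPM in the knockouts. The lowest knockout library was at 2.11 times the highest control library. The means were 17.6 ± 3.30 and 49.5 ± 6.71 CPM (SD, n = 4), which is 1.46 ± 0.176 on the log2 scale (fold change ± standard error) at an edgeR adjusted p of 0.00298. The 95% interval of the fold was 2.12 to 3.57. By unadjusted p Lilr4b ranked 3 among the genes tested.

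Lilrb4a, historically gp49B, encodes the inhibitory partner, which restrains mast cells, macrophages and other leukocytes through its ITIMs. Lilrb4a read 11.6, 13.97, 10.4 and 16.2 CPM in the controls, listed by replicate from 1 to 4, and 29.9, 22.5, 31.2 and 44.4 CPM in the knockouts. The groups did not overlap, and knockout replicate 4 was the highest. The means were 13.03 ± 2.61 and 32.0 ± 9.11 CPM (SD, n = 4), or 1.32 ± 0.236 on the log2 scale (fold change ± standard error), at an edgeR adjusted p of 0.038. The adjusted p exceeded 0.05 with limma-voom (0.101), and in 6 of the 8 fits that left out 1 library (0.106 to 0.195), all but those without control replicate 4 or knockout replicate 2.

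How reads divide between these neighbours is uncertain, since 46.4% of the 51-base words of Lilrb4a, the read length, also occur in other genes, and 24.1% of those of Lilr4b. In the last 500 bases of the transcripts, where a method primed from the poly(A) tail places its reads, the shares were 57.2% and 26.7%. Of the 2677 shared words of Lilrb4a, 1941 occur in Gm49339, an annotated gene with 0 to 9 counts a library, and of the 1508 of Lilr4b, 1481 occur in Lilrb4a. The sum of the pair does not depend on how reads were split between these 2 genes. It was 31.1, 34.7, 27.4 and 29.5 CPM across controls 1 to 4 and 74.2, 74.4, 89.1 and 88.2 CPM across knockouts 1 to 4. The summed pair changed by 1.41 ± 0.135 (log2 fold change ± standard error) at an edgeR adjusted p of 0.000272. The ratio of Lilrb4a to Lilr4b was 0.593 to 1.22 in controls and 0.433 to 1.01 in the knockout libraries, so the groups overlapped.

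**Figure D2:**
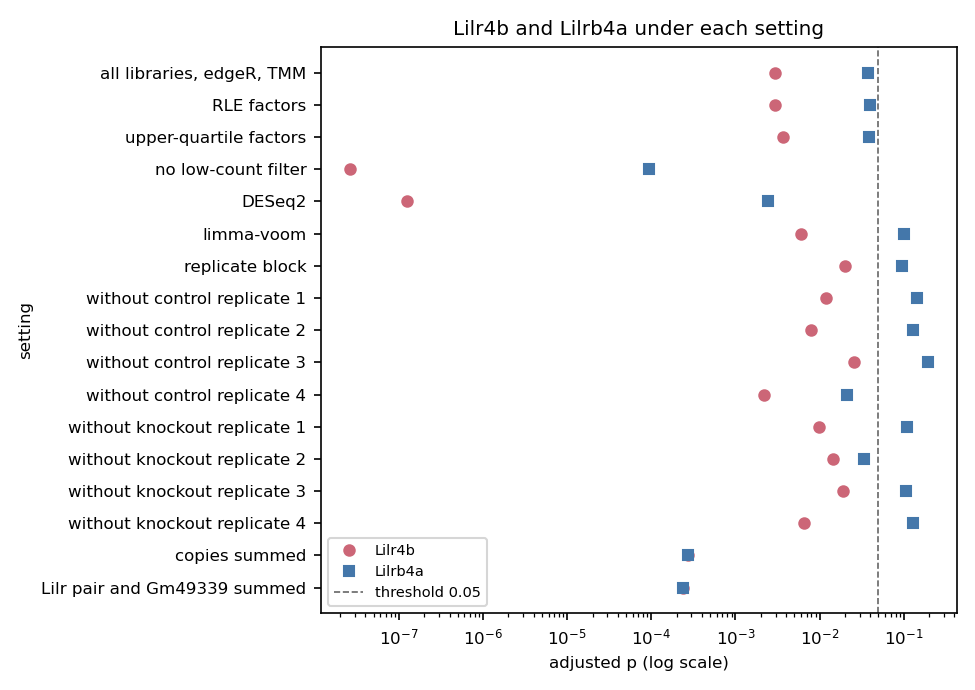
Adjusted p (horizontal axis, log scale) of Lilr4b and Lilrb4a with all libraries and under each other setting (vertical axis), with the threshold of 0.05 dashed. Lilr4b lies under 0.05 throughout, up to 0.0257, while Lilrb4a ranges up to 0.195, and in the settings that sum the pair both carry the value of the sum.

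Pirb, the paired immunoglobulin-like receptor with an inhibitory tail, recognises MHC class I. It is located on chromosome 7 at 3711409 to 3720391. Pirb read 26.6, 21.5, 27.5 and 20.2 CPM in the controls, listed by replicate from 1 to 4, and 36.6, 35.2, 35.9 and 36.0 CPM in the knockouts. All knockout libraries were above all control libraries, and they lay within 1.45 CPM of each other. The log2 fold change was 0.58, with a 95% interval of 0.24 to 0.92, and did not pass (edgeR adjusted p = 0.351). Pirb shares 33.6% of its words with other genes, and 14.2% of those in the last 500 bases of its transcripts. The related genes Pira2, Lilra5 and Lilra6 held at most 16 counts in any library, and their addition left a log2 fold change of 0.55. Of the 1561 shared words of Pirb, 812 occur in Gm14548, which was not part of that sum.

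Of the Fc receptor genes proper, no member passed in edgeR (Fcgr2b and Fcgr3 were tested, both with an unadjusted p above 0.05). Fcgr1 encodes the high-affinity activating receptor for IgG, and lies on chromosome 3 at 96282909 to 96293969. The gene had estimated counts of 11, 4, 19 and 8 across controls 1 to 4 and 5, 7, 11 and 7 across knockouts 1 to 4, or 4.79 ± 2.87 against 2.92 ± 0.933 CPM (SD, n = 4, two-sided exact permutation p = 0.286). Fcgr4 encodes an activating receptor of intermediate affinity, on chromosome 1 at 171018920 to 171029761. The gene had estimated counts of 5, 14.9, 6 and 2 across controls 1 to 4 and 5.4, 7, 1.05 and 6 across knockouts 1 to 4, or 2.99 ± 2.25 against 1.92 ± 1.07 CPM (SD, n = 4, two-sided exact permutation p = 0.543). The smallest p that 4 libraries against 4 allow is 0.0286. At these counts a difference between the genotypes was not detectable for either gene, and their means were lower in the knockout libraries, the opposite side from the other 8.

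Fcgr3 encodes the low-affinity activating receptor for IgG (chromosome 1, 171051174 to 171064935). Fcgr3 read 31.8, 37.5, 41.3 and 36.9 CPM in the controls, listed by replicate from 1 to 4, and 46.8, 51.8, 38.0 and 44.3 CPM in the knockouts. Knockout replicate 3 fell within the control range, so the groups overlapped. The log2 fold change was 0.29, with a 95% interval of -0.03 to 0.61 (edgeR adjusted p = 0.816).

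Fcgr2b encodes the sole inhibitory receptor for IgG (chromosome 1, 170958617 to 170976547). Fcgr2b read 36.3, 48.2, 38.1 and 40.4 CPM in the controls, listed by replicate from 1 to 4, and 41.9, 40.6, 34.0 and 75.7 CPM in the knockouts. In knockout replicate 4 it stood well above the other 7 libraries, which overlapped. The log2 fold change was 0.25, with a 95% interval of -0.24 to 0.74 (edgeR adjusted p = 0.931), and without knockout replicate 4 it was -0.07. The ratio of Fcgr2b to the summed activating genes Fcgr1, Fcgr3 and Fcgr4 was 0.726 to 1.06 in the control libraries. In the knockout libraries it was 0.812, 0.707, 0.796 and 1.56 for replicates 1 to 4. The coding sequences of Fcgr2b and Fcgr3 were identical at 83.7% of 787 aligned bases. They shared 163 words of 51 bases, and none in the last 500 bases of the Fcgr3 transcripts.

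Fcer1g, which encodes the chain that carries the ITAM for the activating receptors, lies near the Fc receptor genes on chromosome 1 at 171229572 to 171234365. Fcer1g read 66.0, 49.4, 57.9 and 38.5 CPM in the controls, listed by replicate from 1 to 4, and 80.1, 65.8, 64.0 and 66.9 CPM in the knockouts. Control replicate 1 overlapped the knockout range. The log2 fold change was 0.37, with a 95% interval of 0.03 to 0.71, and did not pass (edgeR adjusted p = 0.726).

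Sirpa encodes the receptor for the "do not eat me" ligand CD47, with inhibitory motifs in its tail (chromosome 2, 129592835 to 129632228). Sirpa read 58.4, 61.5, 62.3 and 56.4 CPM in the controls, listed by replicate from 1 to 4, and 65.9, 79.5, 71.8 and 85.3 CPM in the knockouts. The groups did not overlap, but the gap between them was 3.60 CPM. The log2 fold change was 0.34 (95% interval 0.08 to 0.60, edgeR adjusted p = 0.618). Sirpa shared no 51-base word with another gene.

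Cd84 encodes a SLAM family receptor that binds itself on neighbouring leukocytes (chromosome 1, 171839697 to 171890718). Cd84 read 24.7, 27.3, 14.03 and 26.6 CPM in the controls, listed by replicate from 1 to 4, and 43.1, 27.5, 34.8 and 35.1 CPM in the knockouts. The groups stood apart by 0.22 CPM, between control replicate 2 and knockout replicate 2. The log2 fold change was 0.60 (95% interval 0.14 to 1.06, edgeR adjusted p = 0.635).

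**Figure D3:**
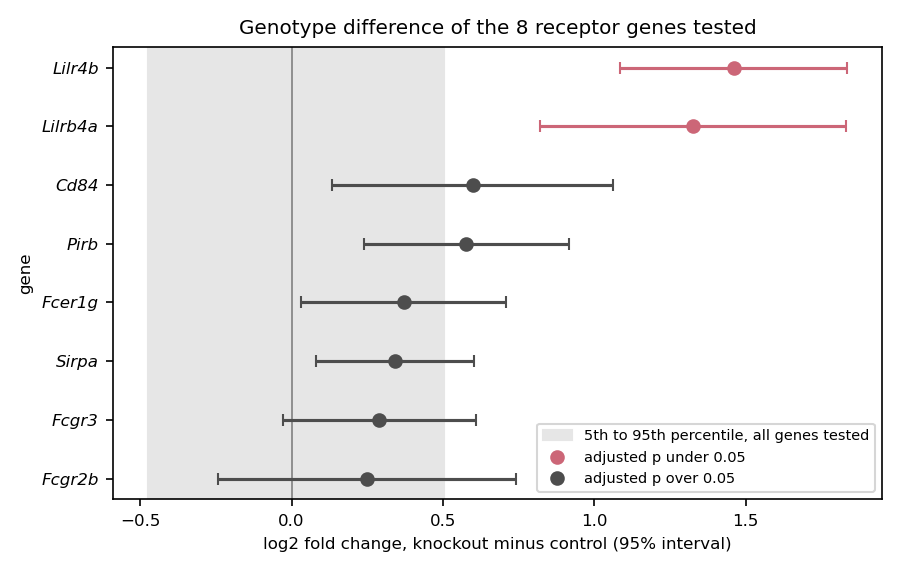
Log2 fold change of the knockout against the control libraries (horizontal axis) for the 8 receptor genes tested, with 95% intervals. Lilr4b and Lilrb4a passed an adjusted p of 0.05, and the grey band marks the 5th to 95th percentile of all genes tested, -0.47 to 0.50.

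The summed macrophage markers lay apart between the genotypes, higher in each knockout library. The summed level of 27 macrophage markers was 1394 to 1542 CPM in controls and 1989 to 2511 CPM in knockouts (n = 4, adjusted p = 0.186 over 13 library measures, from a two-sided exact permutation p of 0.0286). That permutation p is the smallest that 4 libraries against 4 allow, so the adjusted p does not reflect how far the groups lay apart. Of 25 markers tested, 4 passed, all higher (Ctss, Lyz2, Cybb and Cd68, or 1 gene without control replicate 2 and 2 without control replicate 3), and 22 had a log2 fold change above 0, with a median of 0.41. Their part in the receptor results was not tested. The sums for neutrophil, dendritic cell, mast cell, B cell, T cell, NK cell, adipocyte, endothelial and fibroblast markers overlapped between the genotypes, though single abundant genes weigh heavily in some sums, such as Fabp4 in that of adipocytes. Among the tested markers of these lists, 2 had no overlap and did not pass, and they are named after their values were seen. The lists held 3, 8, 6, 1, 3, 1, 12, 10 and 10 tested markers, in the order given above. Over all genes tested, 2.52% lay apart in the higher direction and 1.72% in the lower, so the 2 are no result about these lists. Retn, the resistin gene of adipocytes, was at 2392 ± 319 against 1528 ± 144 CPM (SD, n = 4, edgeR adjusted p = 0.0731). Itgax, which encodes CD11c of dendritic cells and some macrophages, was at 4.17 ± 2.26 against 11.8 ± 3.68 CPM (SD, n = 4, edgeR adjusted p = 0.418). The neutrophil list came to 42.7 to 55.4 CPM in all libraries, with its defining gene Ly6g at 0 throughout. The mitochondrially encoded share was 10.7% to 12.4% in controls and 8.71% to 10.1% in the knockout libraries, without overlap, and its part was not tested either.

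Relative to the macrophage markers, the receptor genes differed in pattern, described here without a test. Lilr4b was at 1.27, 1.41, 1.13 and 0.952 CPM per 100 CPM of macrophage markers in control replicates 1 to 4. It was at 2.15, 2.43, 2.91 and 1.75 in knockout replicates 1 to 4, so it stood above the controls in every knockout library on this scale too. The sum averages over markers that changed unequally, with log2 fold changes from -0.19 for Cd163, the lowest tested, to 1.21 for Ctss, the highest. C1qa was at 0.15 and Lilr4b at 1.46 on the same measure. Whether Lilr4b rose beyond single markers such as Ctss was not tested. Lilrb4a overlapped, at 0.686 to 1.16 against 1.05 to 1.77. Pirb stood at 1.61 ± 0.187 against 1.66 ± 0.171 and Cd84 at 1.58 ± 0.451 against 1.63 ± 0.365 (SD, n = 4).

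The remaining members were at a ratio of knockout to control under 1 on this scale. Fcgr1 and Fcgr4, both at low counts, had the lowest ratios, 0.42 and 0.43, and their libraries overlapped. Fcer1g was at 3.56 ± 0.653 against 3.21 ± 0.509 CPM per 100 CPM of macrophage markers, and Fcgr3 at 2.501 ± 0.302 against 2.09 ± 0.306 (SD, n = 4). Fcgr2b was at 2.77 ± 0.414 against 2.16 ± 0.584 (SD, n = 4). For Sirpa the control libraries, at 3.79 to 4.19, lay above all knockout libraries, at 3.20 to 3.71. Lyz2 made up 25.7% of the marker sum in controls and 31.4% in the knockout libraries. With Lyz2 left out of the sum, chosen after its share was seen, Sirpa overlapped between the genotypes and Lilr4b did not, at 2.10 times the control ratio in place of 1.94.

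**Figure D4:**
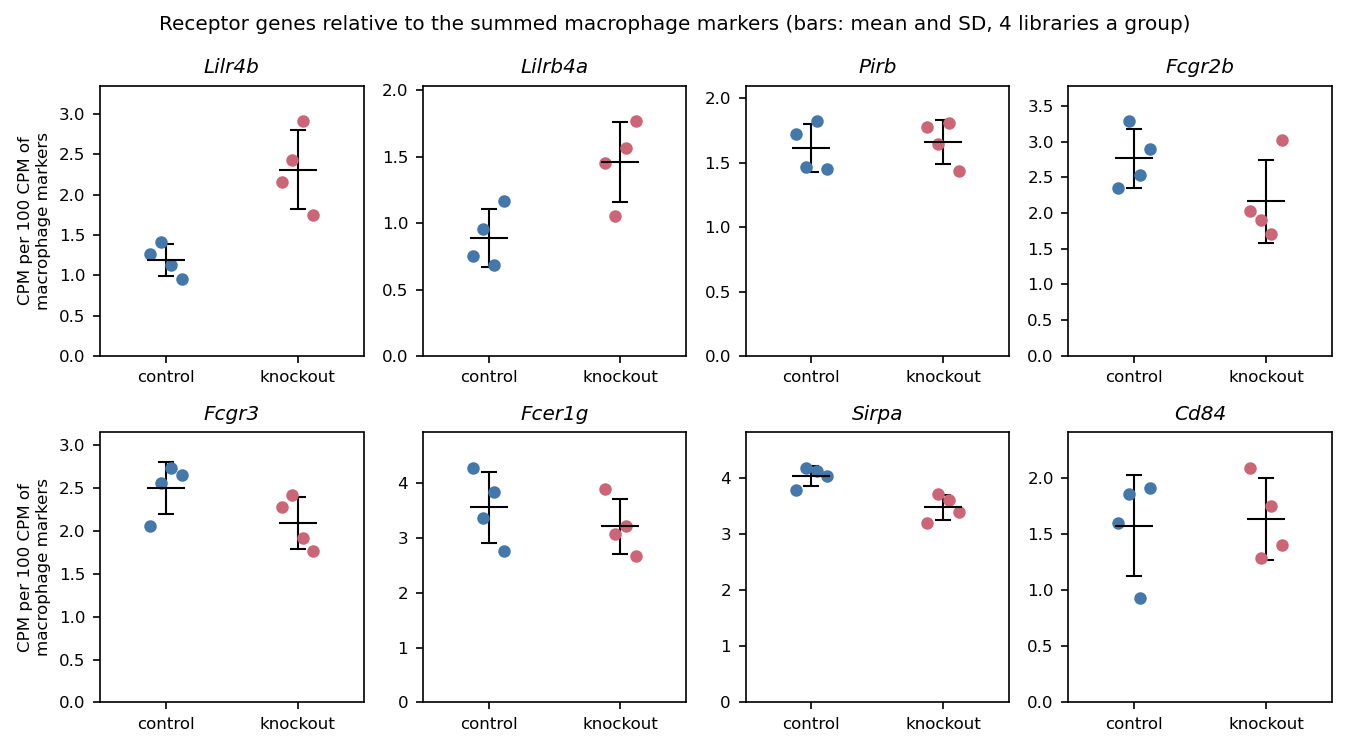
CPM of the 8 receptor genes tested per 100 CPM of the summed macrophage markers (vertical axis, from 0) in each control and knockout library, with bars for the mean and SD. Lilr4b has every knockout library above every control library, Pirb and Cd84 overlap between the genotypes, and Sirpa is lower in each knockout library.

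Scaled to the shared chain Fcer1g in place of the markers, Lilr4b was at 0.296, 0.420, 0.294 and 0.345 across controls 1 to 4 and 0.553, 0.790, 0.904 and 0.655 across knockouts 1 to 4. These groups did not overlap either. Each other member overlapped between the genotypes on that scale, such as Fcgr3, at 0.482 to 0.960 against 0.585 to 0.788.

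Other immunoglobulin-like receptors of leukocytes were compared in the same fit. Of 52 listed, 23 were tested. None passed in edgeR, 7 had an unadjusted p under 0.05, all of them higher, and 19 had a log2 fold change above 0 (median 0.36). Trem2, the lipid-sensing receptor of macrophages, stood at 4.93 to 10.04 CPM in controls and 16.1 to 25.2 CPM in knockouts, without overlap. Its log2 fold change of 1.40 had an edgeR adjusted p of 0.0657, and DESeq2 gave 0.00563. The CD300 genes Cd300a, Cd300c2 and Cd300lb, inhibitory and activating paired receptors, had log2 fold changes of 1.02, 1.30 and 1.34, without overlap of the libraries (edgeR adjusted p = 0.337, 0.450 and 0.469). The adhesion receptor gene Ceacam1 had one of 0.57 (edgeR adjusted p = 0.520).

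Of the genes for tyrosine-based signalling below the receptors, 45 of 57 were tested and none passed in edgeR. A total of 7 had an unadjusted p under 0.05, all higher, and 39 had a log2 fold change above 0 (median 0.23). Tyrobp, whose product DAP12 is an ITAM adaptor like the FcRγ chain, was at 41.6 ± 4.81 against 61.2 ± 6.08 CPM (SD, n = 4), without overlap (log2 fold change 0.55, edgeR adjusted p = 0.260). Lat2, an adaptor below immune receptors, was at 0 to 4.19 CPM in controls and 8.85 to 12.5 CPM in knockouts (log2 fold change 2.06, edgeR adjusted p = 0.272, DESeq2 adjusted p = 0.0344). Ptprc, the CD45 phosphatase gene of all leukocytes, had a log2 fold change of 0.48 (edgeR adjusted p = 0.498). On the inhibitory side, Dok2 and Inpp5d, which encodes the SHIP-1 phosphatase, had 0.82 and 0.84 (edgeR adjusted p = 0.587 and 0.689), and their libraries overlapped. Across the receptor, signalling and ligand lists DESeq2 called 2 genes, Trem2 and Lat2, and limma-voom none.

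**Figure D5:**
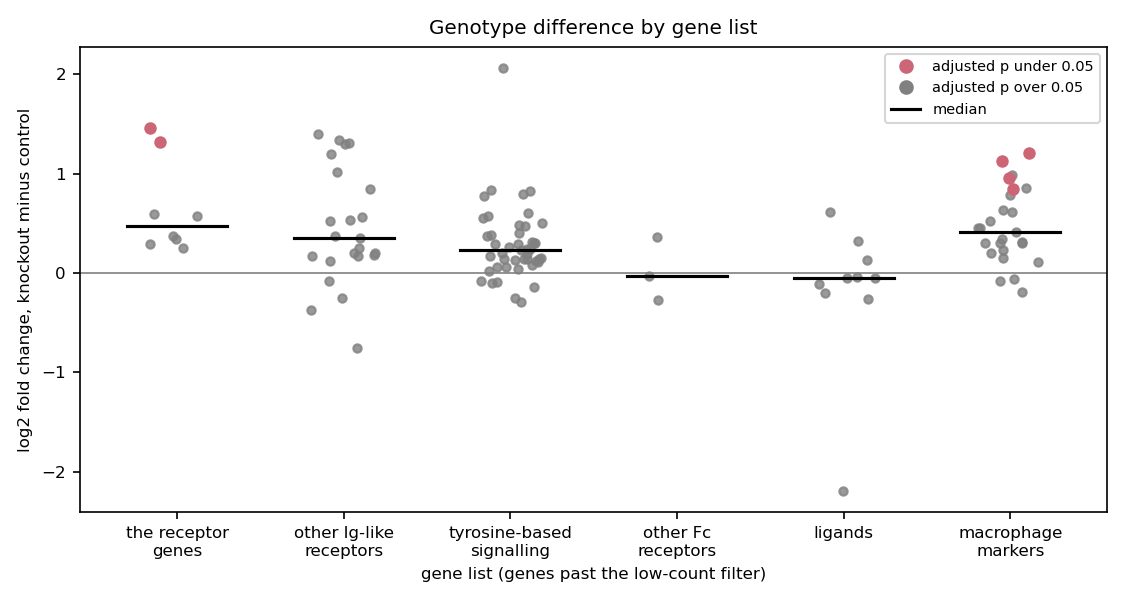
Log2 fold change of the knockout against the control libraries (vertical axis) for each tested gene of 6 lists (horizontal axis), with the median as a bar and genes past an adjusted p of 0.05 in red. Calls appear among the receptor genes (2) and the macrophage markers (4), and the ligand list is centred near 0, at a median of -0.05.

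The ligand genes tested were centred near no difference, but no IgG heavy chain gene was among them. Ighg1, Ighg2b, Ighg2c and Ighg3 did not pass the filter on low counts, with means of 0.73, 2.64, 0.882 and 0.312 CPM in controls. In knockouts their means were 0, 0.461, 0 and 0.679 CPM. Of 19 ligand genes 10 were tested, none passed in edgeR, 1 had an unadjusted p under 0.05, lower, and the median log2 fold change was -0.05. That gene was Iglc2, an immunoglobulin light chain constant gene, at 5.24, 37.4, 24.6 and 0.641 CPM in control replicates 1 to 4 and 1.97 to 6.86 CPM in knockouts (log2 fold change -2.19, edgeR adjusted p = 0.775, or -1.46 without control replicate 2). The heavy chain gene Ighm was at 394 to 979 CPM in controls and 297 to 804 CPM in knockouts. Cd47, the ligand of Sirpa, was at 286 ± 25.04 against 276 ± 7.30 CPM (SD, n = 4), which is -0.04 on the log2 scale with an edgeR adjusted p of 0.982. H2-K1, an MHC class I gene of the kind that Pirb binds, was at 922 ± 160 against 803 ± 94.4 CPM, and Angptl2 at 48.4 ± 6.68 against 60.4 ± 17.4 CPM (SD, n = 4), with edgeR adjusted p of 0.910 and 0.877.

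Of the other Fc receptor genes, 3 of 14 were tested, and none had an edgeR unadjusted p under 0.05. Fcgrt, the neonatal Fc receptor that recycles IgG and albumin in many cell types, was at 231 ± 27.2 against 227 ± 24.1 CPM (SD, n = 4), a log2 fold change of -0.03. Fcrls, a receptor-like gene of macrophages, had one of 0.37 and Trim21, the cytosolic antibody receptor, one of -0.28 (edgeR adjusted p = 0.931 and 0.955).

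The genes with the profile most like the mean of the 8 tested receptor genes were Nceh1, Iqgap1, Samhd1, Myo5a, Lyz2 and Taok3. Likeness was the root mean square difference between centred log2 CPM profiles over 8 libraries, among 10342 genes with enough variation, and it was 0.118 to 0.127 for these 6. It includes the difference between the genotypes. The members differed more from their own mean, by 0.158 for Pirb at the least and 0.465 for Lilr4b at the most. Lyz2, a lysozyme gene of myeloid cells, passed the genotype test (0.85 on the log2 scale, edgeR adjusted p = 0.00776). The other 5 had log2 fold changes of 0.44 to 0.55 and did not pass in edgeR.

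Promoters were read from RefSeq's GRCm38.p6 sequences, 250 bases before to 50 bases after the gene start, in which 8 of the 10 members matched. Lilrb4a and Sirpa had no promoter there and were not searched. The matched promoters were searched on both strands for GAGGAA, a core of the binding sites of the myeloid factor PU.1. TTCNNNGAA, the palindrome of STAT sites, was searched for in the same way. GAGGAA stood in 5 of the 8, namely Pirb, Fcgr1, Fcgr3, Fcgr4 and Cd84, and in 28.3% of 27025 promoters of that length. TTCNNNGAA stood in 2 of the 8, Lilr4b and Fcgr1, and in 8.5% of all. A match of letters is no measured site. The promoters of Lilr4b, which rose, of Pirb, with 3 matches to GAGGAA, and of Fcgr1, with a match to each, are printed 5′ to 3′ in the direction of the gene with matches in capitals. They lie at chr10:51480362-51480661 on the plus strand, and at chr7:3720333-3720632 and chr3:96293920-96294219 on the minus strand.
Lilr4b: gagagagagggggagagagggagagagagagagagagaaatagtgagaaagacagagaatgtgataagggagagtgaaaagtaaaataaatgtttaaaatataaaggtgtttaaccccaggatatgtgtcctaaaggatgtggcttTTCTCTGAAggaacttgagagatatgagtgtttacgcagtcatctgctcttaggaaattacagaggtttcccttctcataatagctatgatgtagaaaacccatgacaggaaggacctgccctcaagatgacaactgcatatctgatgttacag
Pirb: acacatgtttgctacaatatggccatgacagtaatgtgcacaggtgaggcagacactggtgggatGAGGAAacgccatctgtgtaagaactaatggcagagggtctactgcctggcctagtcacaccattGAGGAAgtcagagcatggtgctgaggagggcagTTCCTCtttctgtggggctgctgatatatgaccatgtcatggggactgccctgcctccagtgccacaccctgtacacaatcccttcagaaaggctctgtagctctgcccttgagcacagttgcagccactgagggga
Fcgr1: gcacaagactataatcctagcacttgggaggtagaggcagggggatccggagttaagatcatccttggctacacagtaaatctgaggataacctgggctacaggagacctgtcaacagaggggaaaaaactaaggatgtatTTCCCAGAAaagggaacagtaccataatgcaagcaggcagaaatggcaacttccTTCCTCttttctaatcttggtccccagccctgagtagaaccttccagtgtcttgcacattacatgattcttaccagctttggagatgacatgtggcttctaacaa

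The match to TTCNNNGAA began 104 bases before the gene start in Lilr4b and 109 in Fcgr1. The Pirb matches to GAGGAA began 185, 120 and 87 bases before the start. Those of the activating Fc receptor genes lay nearer, at 55 bases for Fcgr1, 22 for Fcgr4 and 6 for Fcgr3. For Fcgr3 the RefSeq window, chr1:171059354-171059653, lies within the gene span given above, so its start differs from the end of that span.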

How the data were processed

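BRB-seq was run on total RNA, with oligo-dT priming, Tn5 tagmentation and insert reads of 51 bases, per the labels' protocols. The authors deposited estimated counts per gene without normalization, one column per library. Per the submitters' processing notes, Salmon and GRCm38 were used. Salmon's version, its transcript set and any collapsing by molecular identifier are not given in the sources used here. Identifiers were matched without version to GENCODE M21, in which 34652 of 34866 were found.

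Estimated counts, rounded to whole numbers, entered edgeR 4.0.16 in R 4.3.3 (robust quasi-likelihood F test, genotype only, TMM factors, filterByExpr), with Benjamini-Hochberg adjustment over 12480 genes and a threshold of 0.05. CPM are unrounded counts over the TMM-scaled total of the tested genes. Profiles used log2 CPM with a prior count of 2. Single values were compared by exact permutation (two-sided, scipy 1.17.1). Standard errors were derived from the F statistic. The functions were tested on simulated data first.

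The members and lists were chosen with earlier results of these data known. The genes named by rule are the members, and the 5 smallest p and any call in each receptor, signalling and ligand list. Also named by rule are the 6 nearest profiles, calls among cell type markers, and the 2 most abundant of any such list that moved. C1qa, by that rule, was at 121 ± 18.0 against 134 ± 28.4 CPM (SD, n = 4). Each of these was tried in turn: DESeq2 1.42.0, limma-voom (limma 3.58.1), RLE or upper-quartile factors, no filter, a block for the replicate number, 1 library fewer, and related genes summed. The sums joined the Lilr pair, Pirb with Pira2, Lilra5 and Lilra6, Fcgr2b with Fcgr3 and Fcgr4, and Sirpa with Sirpb1a, Sirpb1b and Sirpb1c. Each of these members then carried the value of its sum. Summing the Lilr pair with Gm49339, and leaving Lyz2 out of the macrophage sum, were added after seeing the data.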

Additional observations from a re-analysis of the deposited data

Results flagged for a closer look

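Dixon's test at 95% was applied to the highest and lowest library of each genotype, for 144 sets of 4 values. It picked out 7, and about 7.2 would arise by chance.

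Knockout replicate 4 stood apart for Fcgr2b in the ratios to the activating genes and to Fcer1g. This library was not picked out for Fcgr2b in CPM or per 100 CPM of macrophage markers. Its ratio of Fcgr2b to the activating genes was 1.56, against 0.707 to 0.812 in the other knockout libraries, and its ratio of Fcgr2b to Fcer1g was 1.13, against 0.523 to 0.618. Its sum of dendritic cell markers was 234 CPM, against 197 to 203 CPM in the other knockouts. The ratio of Lilrb4a to Lilr4b was 1.22 in control replicate 4, the smallest library, against 0.593 to 0.673 in the other controls. The ratio of Cd84 to Fcer1g was 0.418 in knockout replicate 2, against 0.525 to 0.544. Inpp5d was at 27.0 CPM in knockout replicate 1, against 13.1 to 14.8 CPM. The fibroblast sum was 3675 CPM in control replicate 1, against 4352 to 4473 CPM.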

How the results depend on the processing

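Lilr4b passed in each of the 16 alternatives run, with log2 fold changes from 1.36 to 1.54. In those that sum the pair, the value is that of the sum and not of Lilr4b alone. The number of receptor genes past the threshold was 2 and went to 1 with limma-voom, to 1 with the replicate block, and leaving out 1 library gave 1 to 2. It was 1 without control replicates 1, 2 or 3 and without knockout replicates 1, 3 or 4, and Lilrb4a was the call lost each time, with its direction kept. With the block its adjusted p was 0.0962. Over all genes the count of 21 went to 58 without the filter, 54 with DESeq2, 6 with the block, and leaving out 1 library gave 4 to 43 (4 without control replicate 2, 43 without control replicate 4). Receptor, signalling and ligand genes past the threshold went from 0 to 2 without the filter and 2 with DESeq2, and macrophage markers from 4 to 6 without the filter, 6 with DESeq2 and 1 with the block, and leaving out 1 library gave 1 to 4 (1 without control replicate 2, 2 without control replicate 3). Signs turned for 4 genes that passed under no setting: Fcgr2b without knockout replicate 4 (-0.0701, leave-one-out range up to 0.383), Fcrls without knockout replicate 4 (-0.071, up to 0.552), Fcgrt without control replicate 1 (0.0061), control replicate 3 (0.0269) or knockout replicate 3 (0.0345, from -0.0997), and Cd47 without control replicate 4 (0.0070, from -0.0885). The cause of these changes was not tested. Deviations of same-numbered libraries correlated across genes at 0.25, -0.06, -0.01 and -0.24. Differently numbered libraries were not compared, so these values cannot decide whether the numbers pair the libraries. The sample titles give only a number, so the block is not offered as a paired analysis. Fcgr1 and Fcgr4 had low counts, and without the filter their log2 fold changes were -0.69 and -0.70, with standard errors of 0.568 and 0.71.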
